A study of Homo sapiens with 8 samples.

Results

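The vacuolar H+-ATPase (V-ATPase) is the proton pump that acidifies lysosomes, endosomes and the Golgi. The 10 genes described here, ATP6V1A, ATP6V1B2, ATP6V1C1, ATP6V1D, ATP6V1E1, ATP6V1H, ATP6V0C, ATP6V0D1, ATP6V0E1 and ATP6AP1, were taken by name as pump genes. They were chosen with earlier results of these data known. All 10 were among the 58735 gene identifiers counted, and all 10 were among the 16452 genes with enough reads to be tested. RNA was sequenced from 22Rv1, a human prostate cancer cell line that grows under androgen deprivation, in 4 libraries given PCC0208017, which the submitters describe as an inhibitor of the kinase MARK3 (MARK3i), and 4 libraries given the vehicle DMSO (control). Neither the dose of the compound nor the time of exposure was given. Whether the libraries of a group came from separate cultures is not stated in the labels, and the p-values therefore rest on a spread between samples that could be technical.

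The pump has a cytosolic V1 sector, which hydrolyses ATP, and a membrane-embedded V0 sector, through which protons pass. ATP hydrolysis in the A and B subunits turns a central stalk and the attached ring of c subunits, and outer stalks keep the rest of the complex still. The acid interior that results is needed by lysosomal hydrolases, and the pump also takes part in amino acid sensing by mTORC1 at the lysosomal surface.

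The MARK3i libraries held 13517289 to 21271127 counts and the control libraries 12672817 to 13386143. Levels are given as CPM, a library-scaled count, with TMM factors that correct each library for its composition, and means are ± SD over the 4 libraries of a group. A gene was called higher or lower in MARK3i at an adjusted p under 0.05 in the quasi-likelihood test of edgeR, with Benjamini-Hochberg adjustment over all tested genes. Fold changes are MARK3i over control, with log2 values ± SE. The treatment went with a broad change in RNA. The test called 58% of all genes, 29.8% higher and 28.3% lower, so a call on a single gene is common here. Summed luminal prostate markers (10 genes, 0 of them without counts) were at 1988 to 2065 CPM of unscaled counts in MARK3i libraries and 2833 to 2898 in control libraries. Fibroblast markers (6 genes, PDGFRA at 0) summed to 15.1 to 22.9 CPM in MARK3i and 11.97 to 17.4 CPM in control. Most of this sum was COL1A1, at 18.0 ± 3.04 CPM in MARK3i and 11.35 ± 2.2 CPM in control with TMM. LUM went the other way, at 0.509 ± 0.201 CPM in MARK3i and 3.0 ± 0.439 CPM in control. Immune and endothelial markers (8 genes, CD3E, PECAM1 and CDH5 at 0) summed to 1.41 to 2.77 CPM in MARK3i and 1.42 to 1.97 CPM in control. The part of the lower luminal markers in the pump results was not tested.

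Of the 10 pump genes, 7 were higher in MARK3i libraries, 0 were lower and 3 were not called. The share called higher was 70%, beside 29.8% of all tested genes. DESeq2 and limma-voom likewise called 7 higher and 0 lower, and 0 were lower at an unadjusted p under 0.05. The same 7 genes had every MARK3i library above every control library, an arrangement found in 25.8% of all tested genes, and 0 had every MARK3i library below, found in 25.1%. The median log2 change of the 10 genes was 0.28, beside 0.02 over all tested genes. Because the 10 genes and the other lists were chosen with earlier results of these data known, their shares and medians are descriptions and not tests. Among the 11608 genes whose mean level lay within the range of the 10 (3.904 to 218.7 CPM), 33.6% were higher, 30.6% were lower and the median was 0.03. The low end of this range was set by ATP6V0C alone, so the band took in most tested genes and matched level only loosely. Scaling by total counts alone moved the median of all genes to 0.13 and the share of calls that were higher to 63.6%, against 51.3% with TMM, and it called 8 of the 10 pump genes higher. In bulk RNA, fewer cells of a type and less RNA per cell cannot be told apart.

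**Figure D1:**
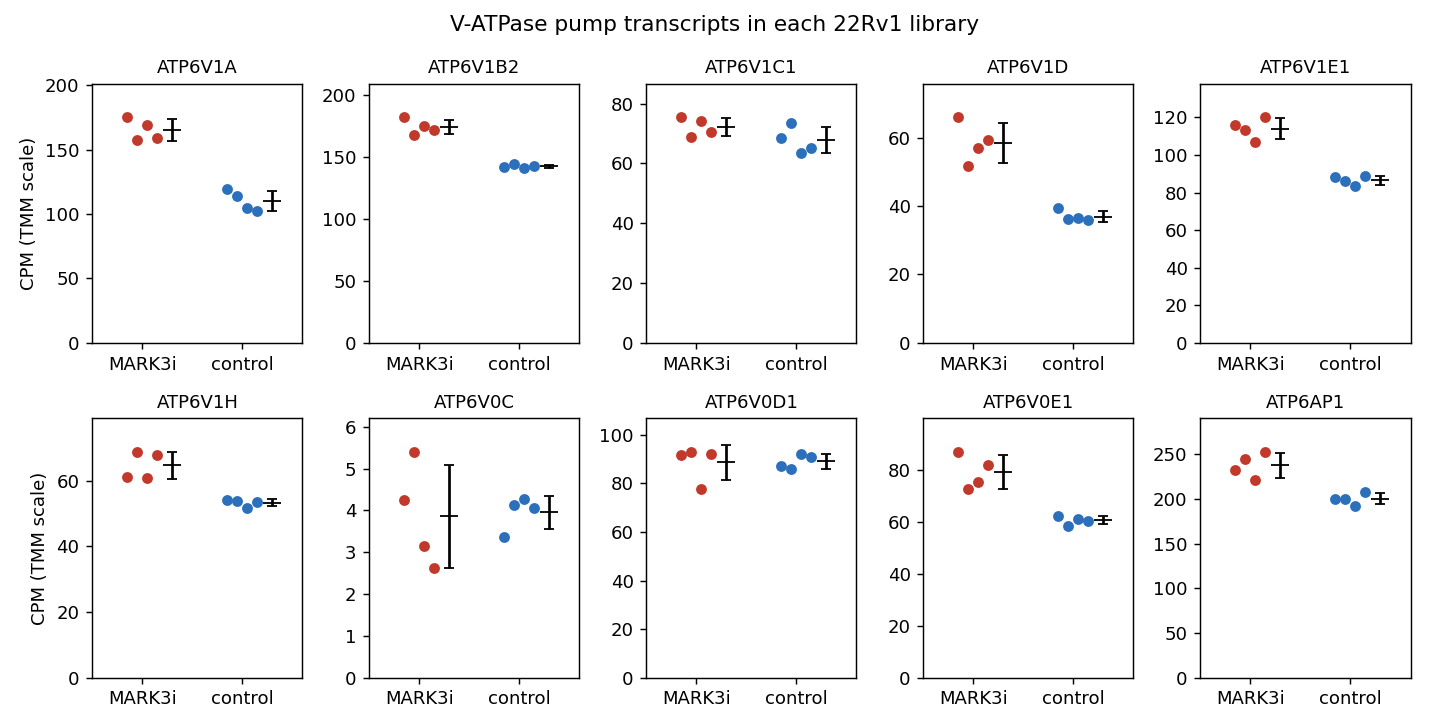
Level of each of the 10 pump genes in CPM (TMM scale, linear axis from 0), with 1 point per library, MARK3i on the left and control on the right, and the mean ± SD beside the points. The MARK3i points lie above all control points for 7 genes, while the points of ATP6V1C1, ATP6V0C and ATP6V0D1 overlap.

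In the V1 sector, 5 of the 6 listed subunits (83.3%, beside 29.8% of all tested genes) were higher in MARK3i and 1 was not called. The largest rise was that of ATP6V1D (ENSG00000100554, hg38 chromosome 14, 67294371 to 67360265, minus strand), the D subunit of the central rotor shaft. ATP6V1D was at 65.9, 51.6, 57.1 and 59.2 CPM in MARK3i libraries 1 to 4, against 39.3, 36.1, 36.5 and 35.8 CPM in control libraries 1 to 4. The lowest MARK3i library stood above the highest control library. The means were 58.5 ± 5.9 CPM in MARK3i and 36.9 ± 1.61 CPM in control, a 1.58-fold difference (log2 0.66 ± 0.08, adjusted p = 6.88e-08). The exons of ATP6V1D share 98 bases with PALS1, which lies on the opposite strand and averaged 48.2 CPM of unscaled counts, so reads there cannot be assigned if strand was not used in the counting.

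The catalytic A subunit, which binds and hydrolyses ATP, is encoded by ATP6V1A (ENSG00000114573, chromosome 3, 113746770 to 113812056, plus strand). ATP6V1A was at 174.9, 157.5, 169.2 and 159.1 CPM in MARK3i and 119.2, 114.3, 105.0 and 102.7 CPM in control. All MARK3i libraries were well above the controls, and control libraries 1 and 2 were above control libraries 3 and 4. The mean rose to 165.2 ± 8.3 CPM in MARK3i, against 110.3 ± 7.78 CPM in control, 1.5-fold (log2 0.58 ± 0.06, adjusted p = 1.46e-08).

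ATP6V1B2 (ENSG00000147416, chromosome 8, 20197381 to 20226819, plus strand) encodes the non-catalytic B subunit that alternates with A in the head of the pump. It was at 181.7, 167.9, 174.5 and 171.6 CPM in MARK3i and 142.1, 144.1, 140.8 and 142.5 CPM in control. The control libraries lay within a narrow band below all MARK3i libraries, and the rise was 1.22-fold (log2 0.29 ± 0.05, adjusted p = 6.25e-05). In the finished head, A and B subunits are present in equal number. The count of ATP6V1A per count of ATP6V1B2 was 0.963, 0.938, 0.969 and 0.927 in MARK3i libraries and 0.839, 0.793, 0.745 and 0.72 in control libraries, with no overlap. This ratio, a difference of 0.30 in log2 between the groups, was chosen after the values were seen, so no p is printed for it. Its counts were not divided by exon length, which is 6332 bases for ATP6V1A and 7797 for ATP6V1B2. The ratio is therefore read only between groups, and not against an equal number of A and B. Per kb of exons, ATP6V1A averaged 26.1 and ATP6V1B2 22.3 CPM in MARK3i, against 17.4 and 18.3 in control.

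The stalks that hold the head in place contain the E and G subunits, and ATP6V1E1 (ENSG00000131100, chromosome 22, 17592136 to 17628749, minus strand) encodes the widely expressed E isoform. It was at 115.9, 113.5, 107.0 and 120.0 CPM in MARK3i and 88.4, 85.9, 83.3 and 88.6 CPM in control. The groups did not overlap, and the means of 114.1 ± 5.46 CPM in MARK3i and 86.6 ± 2.49 CPM in control differed 1.32-fold (log2 0.40 ± 0.06, adjusted p = 3.15e-06). ATP6V1H (ENSG00000047249, chromosome 8, 53715543 to 53843558, minus strand) encodes the H subunit, which links the stalks to the membrane sector and restrains ATP hydrolysis in a detached V1 sector. It was at 61.2, 68.7, 60.9 and 67.9 CPM in MARK3i and 54.0, 53.9, 51.7 and 53.6 CPM in control. Every MARK3i library was higher than every control, by 1.21-fold on average (log2 0.28 ± 0.07, adjusted p = 0.00081).

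The C subunit, which bridges the stalks at the V1 and V0 interface and is released when the sectors separate, did not pass the test. Its gene ATP6V1C1 (ENSG00000155097, chromosome 8, 103021063 to 103073051, plus strand) was at 75.4, 69.0, 74.3 and 70.6 CPM in MARK3i and 68.6, 73.6, 63.5 and 65.3 CPM in control. Control library 2 lay within the MARK3i range. The log2 difference was 0.09 ± 0.07 (adjusted p = 0.232), with a 95% interval of −0.04 to 0.22. Scaling by total counts gave 0.20 (adjusted p = 0.0122), and offsets for GC content gave −0.01.

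Of the 3 listed V0 genes, 1 was higher (33.3%, near the 29.8% of all tested genes) and 2 were not called. ATP6V0E1 (ENSG00000113732, chromosome 5, 172983771 to 173035445, plus strand) encodes the small e subunit of the membrane sector. It was at 86.7, 72.5, 75.2 and 81.7 CPM in MARK3i and 62.3, 58.4, 61.1 and 60.3 CPM in control. The groups were apart, with means of 79.0 ± 6.39 CPM in MARK3i and 60.5 ± 1.63 CPM in control, 1.3-fold (log2 0.38 ± 0.07, adjusted p = 2.82e-05).

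ATP6V0D1 (ENSG00000159720, chromosome 16, 67438014 to 67481181, minus strand) encodes the d subunit, which couples the rotor shaft to the c ring. It was at 91.8, 92.8, 77.8 and 91.9 CPM in MARK3i and 87.1, 85.9, 92.2 and 90.8 CPM in control. The groups overlapped, and MARK3i library 3 was the lowest of all. The log2 difference was −0.01 ± 0.06 (adjusted p = 0.952, 95% interval −0.13 to 0.12), and 0.04 without MARK3i library 3. Scaling by total counts gave 0.10 (adjusted p = 0.181). Over the 18 alternatives the value ranged from −0.04 to 0.12, with a lowest adjusted p of 0.0583, so it was never called. The count of ATP6V1D, the shaft subunit that sits on d, per count of ATP6V0D1 was 0.718, 0.556, 0.734 and 0.645 in MARK3i and 0.451, 0.421, 0.396 and 0.394 in control. These ratios do not overlap, and like the ratio above they were chosen after the values were seen.

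ATP6V0C (ENSG00000185883, chromosome 16, 2513952 to 2520218, plus strand) encodes the c subunit, whose copies form the proton-carrying ring. It had 61, 120, 45 and 38 counts in MARK3i and 43, 52, 52 and 52 counts in control. In CPM these were 4.25, 5.39, 3.15 and 2.63 in MARK3i and 3.37, 4.12, 4.26 and 4.06 in control, so the MARK3i libraries lay on both sides of the controls. The log2 difference of −0.00 ± 0.20 (adjusted p = 0.989) had a 95% interval of −0.40 to 0.39. The upper end lies above the change of 4 of the 7 genes that were higher (ATP6V0E1, ATP6V1B2, ATP6V1H and ATP6AP1) and just below that of ATP6V1E1 (0.40). Of the 1416 exonic bases of ATP6V0C in the annotation used here, 862 are shared with ENSG00000260272 and 218 with ENSG00000259784, both on the same strand and both at 0.009 CPM of unscaled counts. How the counting treated reads in shared exons is not stated, so the low level of ATP6V0C is uncertain.

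Motif CACGTG, the core of the site bound by TFEB, TFE3 and MITF, transcription factors of lysosomal genes, was looked up in promoters because members of the family differed between the groups. TFE3 was higher (37.3 ± 2.0 CPM in MARK3i, 26.5 ± 1.6 CPM in control, log2 0.50 ± 0.08, adjusted p = 5.35e-06), as was MITF (9.12 ± 0.959 CPM in MARK3i, 6.67 ± 0.164 CPM in control, log2 0.45 ± 0.12, adjusted p = 0.00325). TFEB was lower (10.01 ± 0.793 CPM in MARK3i, 14.97 ± 2.29 CPM in control, log2 −0.58 ± 0.12, adjusted p = 0.000145). Promoters of 300 bases (250 before and 50 after the start of the gene) were taken from RefSeq on GRCh38.p14, which gave 5 of the 10 pump genes, ATP6AP1, ATP6V0C, ATP6V0D1, ATP6V1D and ATP6V1E1. The motif, which reads the same on both strands, was in 1 of these 5, ATP6V0D1, and in 7.26% of the 35116 promoters of the table. Among the 13 other pump genes with a promoter it was in 3, ATP6V0B, ATP6V0E2 and ATP6V1G1. A stretch of 30 bases around each match follows, 5′ to 3′ on the strand of the gene, with the motif in capitals.
ATP6V0D1 (chr16:67481199-67481228, minus strand): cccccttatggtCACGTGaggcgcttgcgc
ATP6V0B (chr1:43974900-43974929, plus strand): ggtCACGTGgtaccggcgcatCACGTGggc
ATP6V0E2 (chr7:149872884-149872913, plus strand): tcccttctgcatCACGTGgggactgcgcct
ATP6V1G1 (chr9:114587699-114587728, plus strand): acgctgtgcggtCACGTGacaacgggggcg
In all 4 promoters the motif is preceded by T on at least 1 strand, giving TCACGTG, which is in 3.71% of the promoters. ATP6V0B holds a pair of matches, 57 and 39 bases before the start. Of the 4 genes that carry the motif in this window, ATP6V0E2 was higher, ATP6V1G1 was lower, and ATP6V0D1 and ATP6V0B were not called. No promoter was available for ATP6V0E1, ATP6V1A, ATP6V1B2, ATP6V1C1 and ATP6V1H, so these were not searched. All of them but ATP6V1C1 were higher in MARK3i, so most of the pump genes called higher were not looked at here. A match is a description of the letters and not evidence of binding.

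ATP6AP1 (ENSG00000071553, chromosome X, 154428633 to 154436516, plus strand) encodes the accessory protein Ac45, a membrane glycoprotein that takes part in assembly of the V0 sector. It was at 231.7, 244.3, 221.3 and 252.1 CPM in MARK3i and 200.3, 200.1, 192.4 and 207.1 CPM in control. The groups did not overlap, and the difference was 1.19-fold (log2 0.25 ± 0.06, adjusted p = 0.000521). Its partner ATP6AP2, also known as the prorenin receptor and not among the 10, was at 118.5, 106.3, 105.5 and 109.3 CPM in MARK3i and 83.4, 86.9, 79.5 and 73.7 CPM in control. That was the largest rise among the other pump genes, 1.36-fold (log2 0.44 ± 0.06, adjusted p = 2.27e-06), with no overlap between groups.

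Besides the 10, the files held 16 further subunit and isoform genes of the pump, of which 11 were tested. MARK3i libraries had 4 of the 11 higher, 3 lower and 4 not called, shares of 36.4% and 27.3% that lie near the 29.8% and 28.3% of all genes. Their median log2 change was −0.03 with TMM, 0.07 with total counts and 0.09 with GC offsets, so its sign depends on the scaling. Beside ATP6AP2, the higher genes were ATP6V1F, the F subunit of the rotor shaft (146.8 ± 6.79 CPM in MARK3i, 125.6 ± 5.69 CPM in control, log2 0.22 ± 0.06, adjusted p = 0.00187), ATP6V0A1, an isoform of the a subunit that forms the proton path (118.7 ± 7.67 CPM in MARK3i, 102.9 ± 2.63 CPM in control, log2 0.21 ± 0.06, adjusted p = 0.00509), and ATP6V0E2, the second e isoform. ATP6V0E2 averaged 124.9 ± 4.77 CPM in MARK3i and 109.4 ± 7.74 CPM in control (log2 0.19 ± 0.06, adjusted p = 0.00995), and it lost the call without control library 1 (adjusted p = 0.0625). Its exons share 864 bases with the antisense gene ATP6V0E2-AS1, which was at 6.74 CPM of unscaled counts.

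The lower genes included a pair of further a isoforms. ATP6V0A2 was at 38.7, 36.8, 41.3 and 34.1 CPM in MARK3i and 49.96, 47.0, 44.7 and 44.9 CPM in control, with every MARK3i library below every control (log2 −0.31 ± 0.07, adjusted p = 0.001). TCIRG1, the a3 isoform known from osteoclasts, averaged 24.1 ± 4.54 CPM in MARK3i and 30.3 ± 3.11 CPM in control with overlapping libraries (log2 −0.32 ± 0.11, adjusted p = 0.0162). TCIRG1 lost the call in 4 of 18 alternatives, among them total counts, GC offsets (log2 −0.09) and leaving out control library 3 (adjusted p = 0.0584). ATP6V1G1, the G subunit that pairs with E in the stalks, averaged 77.7 ± 3.56 CPM in MARK3i and 87.0 ± 3.61 CPM in control (log2 −0.16 ± 0.06, adjusted p = 0.0267) and lost the call in 8 of 18 alternatives. The count of ATP6V1E1 per count of ATP6V1G1 was 1.5, 1.48, 1.44 and 1.45 in MARK3i and 1, 0.952, 1.02 and 1.01 in control. This ratio, also picked after the values were seen, differed by 0.56 in log2 with no overlap.

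Not called were ATP6V0B, the c″ subunit of the ring (255.3 ± 11.9 CPM in MARK3i, 260.9 ± 13.3 CPM in control, log2 −0.03 ± 0.06), ATP6V1C2 (17.0 ± 1.01 CPM in MARK3i, 15.2 ± 0.728 CPM in control, log2 0.17 ± 0.09), ATP6V1E2 (1.56 ± 0.347 CPM in MARK3i, 1.6 ± 0.479 CPM in control) and RNASEK (3.03 ± 0.698 CPM in MARK3i, 3.59 ± 0.326 CPM in control). ATP6V1C2 shares 1033 exonic bases with PDIA6 on the opposite strand, which was at 126.7 CPM of unscaled counts, and RNASEK shares 661 with the read-through gene RNASEK-C17orf49, so both levels are uncertain. The 5 untested genes are isoforms best known from specialised cells such as those of kidney, bone and neurons. ATP6V0D2 and ATP6V1G3 had 0 counts in all 8 libraries, which allows up to 0.141 CPM in the deepest and 0.237 CPM in the shallowest library, counting error only. ATP6V0A4 had 1 count in 1 library of each group. ATP6V1B1 had 1 to 3 counts in MARK3i and 0 to 1 in control libraries, and ATP6V1G2 had 6 to 13 counts over both groups.

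By sector, over all 21 tested pump genes, 6 of 10 V1 genes were higher and 1 was lower (median log2 0.25), 3 of 9 V0 genes were higher and 2 were lower (median −0.01), and both accessory genes were higher. As shares these are 60% higher and 10% lower for V1 and 33.3% higher and 22.2% lower for V0, the V0 shares lying near the 29.8% and 28.3% of all tested genes. The difference between sectors was not tested. All 21 together had 11 higher, 3 lower and 7 not called, with a median of 0.19.

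**Figure D2:**
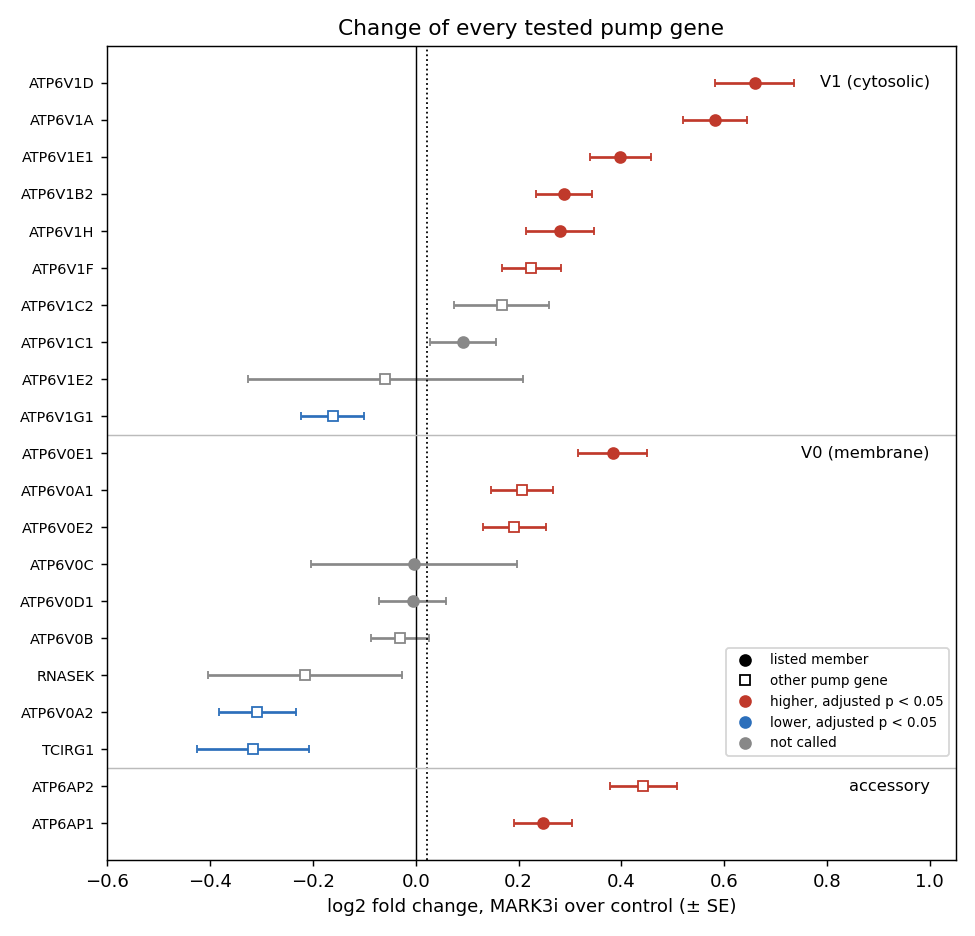
Log2 fold change (MARK3i over control, ± SE) of each of the 21 tested pump genes, by sector, with filled circles for the 10 listed genes and open squares for the other 11. The dotted line is the median of all tested genes at 0.02, and ATP6V1D at 0.66 and TCIRG1 at −0.32 are the ends of the range.

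The 3 count ratios above are read only between groups. Levels were otherwise compared between pump genes after division by the length of their merged exons (CPM per kb). In MARK3i libraries the order was ATP6V0E1 at 49.1, ATP6AP1 at 41.8, ATP6V1E1 at 36.3, ATP6V1A at 26.1, ATP6V1B2 at 22.3, ATP6V1D at 13.8, ATP6V1H at 12.7, ATP6V1C1 at 12.4, ATP6V0D1 at 10.9 and ATP6V0C at 2.72 CPM per kb. The library ranges of ATP6V1D and ATP6V1H, and of ATP6V1H and ATP6V1C1, overlapped, so their order is not set. In control libraries it was ATP6V0E1 at 37.6, ATP6AP1 at 35.2, ATP6V1E1 at 27.5, ATP6V1B2 at 18.3, ATP6V1A at 17.4, ATP6V1C1 at 11.6, ATP6V0D1 at 10.9, ATP6V1H at 10.4, ATP6V1D at 8.7 and ATP6V0C at 2.79 CPM per kb. There the neighbours ATP6V0E1 and ATP6AP1, ATP6V1B2 and ATP6V1A, ATP6V1C1 and ATP6V0D1, and ATP6V0D1 and ATP6V1H overlapped. Per kb, ATP6V1D was thus above ATP6V0D1 in MARK3i libraries and below it in control libraries. This crossing depends on the merged exon lengths, 4247 bases for ATP6V1D and 8156 for ATP6V0D1. Without division by length, ATP6V1D was below ATP6V0D1 in every library. The means were 58.5 against 88.6 CPM in MARK3i and 36.9 against 89.0 CPM in control. Subunits that are not among the 10 reached higher levels, with ATP6V1F at 192.6 in MARK3i and 164.8 in control and ATP6V0B at 78.8 in MARK3i and 80.6 in control, in CPM per kb.

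**Figure D3:**
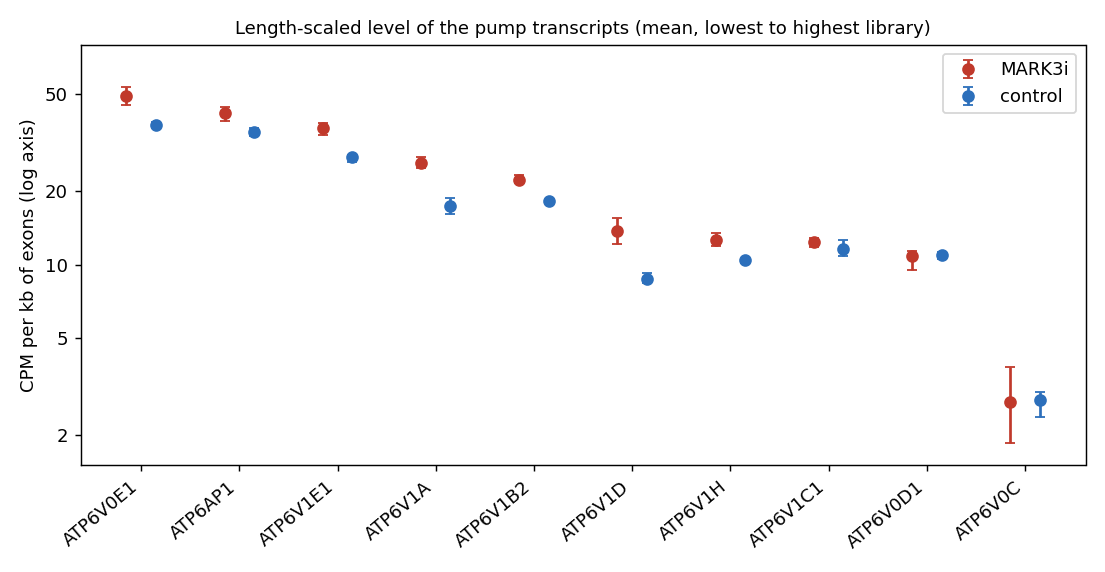
Mean level of the 10 pump genes per kb of merged exons (log axis), with MARK3i left of control and bars from the lowest to the highest library, ordered by the MARK3i mean. ATP6V0E1 has the highest mean in both groups, with a range that overlaps that of ATP6AP1 in control, and ATP6V0C has the lowest. ATP6V1D has the sixth mean in MARK3i at 13.8, with a range that overlaps that of ATP6V1H, but is below ATP6V0D1 in control at 8.7 CPM per kb. The order of these genes depends on the division by exon length.

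No isoform share of the listed subunits passed the test between groups. ATP6V0E1 gave 72.6% ± 1.98 of the e subunit RNA per kb in MARK3i and 69.9% ± 1.8 in control, a difference of 2.67 percentage points (exact two-sided permutation p = 0.0857, adjusted over 3 shares 0.257). Which e isoform is the larger depends on the merged exon lengths, 1609 bases for ATP6V0E1 and 6749 for ATP6V0E2. Without division by length, ATP6V0E2 was above ATP6V0E1, at 124.9 against 79.0 CPM in MARK3i and 109.4 against 60.5 CPM in control. ATP6V1C1 gave 71.8% ± 1.97 of C subunit RNA in MARK3i and 72.7% ± 1.96 in control (exact p = 0.543, adjusted 0.543). For the E subunit, ATP6V1E1 gave 99.2% ± 0.212 in MARK3i and 98.9% ± 0.305 in control (exact p = 0.257, adjusted 0.386). With 4 against 4 libraries the smallest p this test can give is 0.0286, and a lone share whose groups did not overlap would have an adjusted p of 0.0857, so 1 share by itself could not pass. ATP6V1B2 gave 99.8% of B subunit RNA in MARK3i and 99.9% in control, and ATP6V0D1 gave 100% of d subunit RNA in both, and these were not tested because the partner isoform had at most 3 counts in a library.

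Of 13 tested genes that assemble or regulate the pump, 7 were higher (53.8%, beside 29.8% of all tested genes), 2 were lower (15.4%, beside 28.3%) and 4 were not called. Their median log2 change was 0.23, beside 0.02 over all genes. WDR7 and DMXL2, which form the rabconnectin complex that promotes joining of V1 and V0, were both higher. WDR7 averaged 24.4 ± 1.97 CPM in MARK3i and 16.3 ± 1.28 CPM in control (log2 0.59 ± 0.09, adjusted p = 5.19e-06), and DMXL2 averaged 50.02 ± 8.46 CPM in MARK3i and 33.0 ± 3.15 CPM in control (log2 0.60 ± 0.10, adjusted p = 1.9e-05). In the same list, DMXL1 was higher with overlapping libraries (log2 0.24 ± 0.10, adjusted p = 0.0384) and ROGDI was not called (log2 0.13 ± 0.10, adjusted p = 0.259). The TLDc-domain genes were mixed, with TLDC2, MEAK7 and NCOA7 higher and OXR1 and TBC1D24 not called. TLDC2 averaged 5.81 ± 1.07 CPM in MARK3i and 2.52 ± 0.532 CPM in control (log2 1.22 ± 0.18, adjusted p = 4.19e-06), and MEAK7 averaged 18.4 ± 0.924 CPM in MARK3i and 12.4 ± 0.801 CPM in control (log2 0.58 ± 0.09, adjusted p = 1.1e-05). The log2 change was 0.45 ± 0.10 for NCOA7 (adjusted p = 0.000337), 0.06 for OXR1 (adjusted p = 0.516) and −0.10 for TBC1D24 (adjusted p = 0.323). VMA21, a chaperone of the endoplasmic reticulum needed to assemble V0, was lower, at 26.6, 27.1, 29.4 and 26.8 CPM in MARK3i and 40.9, 41.2, 40.2 and 37.9 CPM in control. All 4 MARK3i libraries were below all controls (log2 −0.54 ± 0.07, adjusted p = 6.96e-07). TMEM199, another V0 assembly factor, averaged 7.37 ± 0.816 CPM in MARK3i and 9.1 ± 0.521 CPM in control (log2 −0.31 ± 0.12, adjusted p = 0.0331) and lost the call in 8 of 18 alternatives. CCDC115, which works with TMEM199 in V0 assembly, was higher, at 40.4 ± 2.02 CPM in MARK3i and 34.5 ± 2.31 CPM in control (log2 0.23 ± 0.07, adjusted p = 0.0113). NCOA7, OXR1, TBC1D24, CCDC115, DMXL1 and ROGDI were picked for the text after their values were seen.

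For comparison with the organelle that the pump acidifies, 29 lysosomal hydrolases and membrane proteins were looked up. Their median log2 change was 0.39. Called were 20 higher (69%, beside 29.8% of all tested genes) and 3 lower (10.3%, beside 28.3%), and 6 were not called. These included NEU1 (log2 0.84 ± 0.06, adjusted p = 5.88e-12) and IDS (1.09 ± 0.08, adjusted p = 1.56e-11) among the higher and NAGLU (−1.09 ± 0.08, adjusted p = 1.27e-11) and CD63 (−0.43 ± 0.05, adjusted p = 1.98e-07) among the lower. The rotary ATP synthase of mitochondria is related to the V-ATPase but makes ATP. It had 0 of 18 subunits higher, 11 lower (61.1%, beside 28.3% of all tested genes) and 7 not called, with a median of −0.16. Under total counts its numbers were 2 higher and 5 lower. Its lower subunits included ATP5F1D (166.1 ± 16.6 CPM in MARK3i, 313.4 ± 25.4 CPM in control, log2 −0.91 ± 0.07, adjusted p = 6.57e-11) and ATP5F1B (log2 −0.32 ± 0.05, adjusted p = 1.97e-05). No test of one list against another was made.

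**Figure D4:**
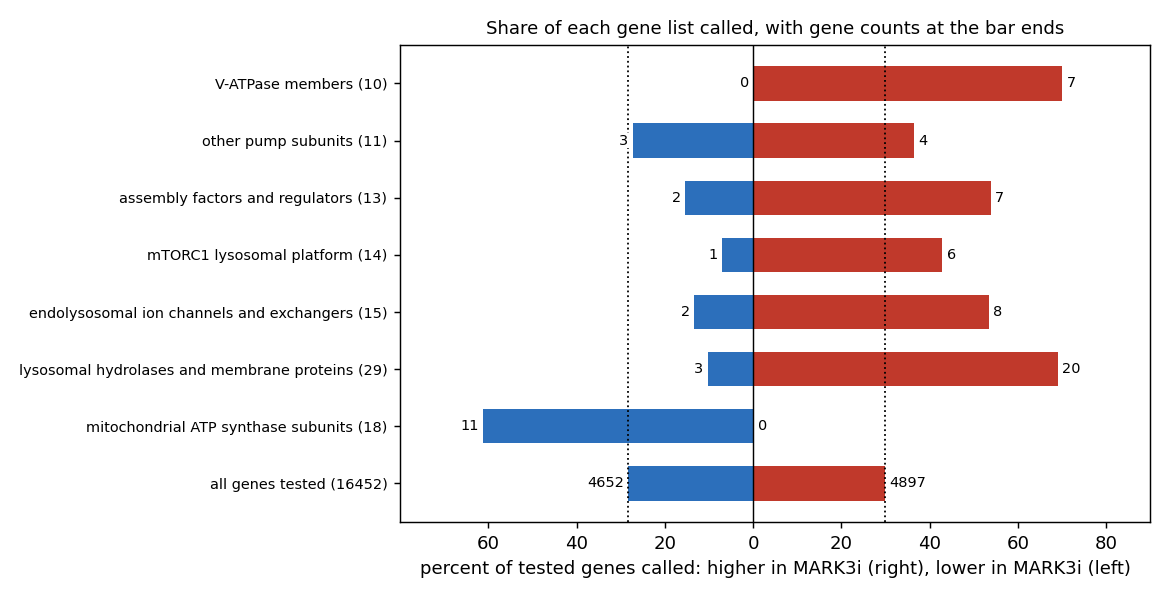
Percent of the tested genes of each list called higher (right of 0) or lower (left of 0) in MARK3i, with numbers of genes at the bar ends and dotted lines at the 29.8% and 28.3% of all tested genes. The 10 V-ATPase genes have 7 higher and 0 lower, and the 18 mitochondrial ATP synthase subunits have 0 higher and 11 lower.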

How the data were processed

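RNA of 22Rv1 cells was sequenced in 8 libraries, 4 MARK3i and 4 control. The authors deposited unnormalised counts per gene, obtained with featureCounts after alignment to hg38, per the submitters' processing notes and design text, which also name DESeq2. Not given in the sources used here are the aligner, annotation, versions, strand setting and treatment of shared exons. Coordinates, symbols and exon lengths came from GENCODE release 44 on hg38, in which 58207 of 58735 identifiers were found.

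Groups were read from the sample titles. Gene counts differed between pairs of libraries of a group by 1.736 to 10.81 chi-square units per degree of freedom, above sampling noise, and by 38.9 to 53.97 between groups. Control libraries 1 and 2 (1.761) and 3 and 4 (1.736) were closer to each other than across these pairs (3.662 to 4.986).

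The quasi-likelihood test of edgeR 4.0.16 (R 4.3.3) was used (filterByExpr on the group, TMM factors of 1.01 to 1.06 in MARK3i and 0.96 to 0.968 in control, robust glmQLFit, glmQLFTest on the group alone, Benjamini-Hochberg over 16452 genes). The biological coefficient of variation was 7.2% and the median SE of a log2 fold change 0.10. Intervals are the log2 fold change ± 1.96 SE, a normal multiplier, so they can be slightly narrower than the edgeR test implies. Isoform shares used exact permutation tests.

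The pump genes and gene lists were chosen with earlier results of these data known. Named in the text are the 10 pump genes, all other subunit genes, and from each other list up to 4 called genes per direction with the smallest p. Beside these, the assembly and regulator genes NCOA7, OXR1, TBC1D24, CCDC115, DMXL1 and ROGDI were added after their values were seen. The channel gene MCOLN1 and the exchanger gene SLC9A9 were also added after their values were seen. The 3 count ratios were chosen after their values were seen. Alternatives were scaling by RLE, by upper quartile or by total counts, no filter, a filter of 1 CPM in 4 libraries, DESeq2 1.42.0, limma-voom (limma 3.58.1), the replicate number as a block, GC offsets (GC content known for 99.4% of genes), an adjusted p under 0.01 and each library left out in turn.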

Additional observations from a re-analysis of the deposited data

Results flagged for a closer look

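ATP6V0D1 in MARK3i library 3 was 77.8 CPM, far below the other MARK3i libraries at 91.8, 92.8 and 91.9 CPM, and the gap was 0.933 of the range of the group. Control libraries were at 87.1, 85.9, 92.2 and 90.8 CPM. ATP6V0B stood apart in the same library, at 237.6 CPM beside 260.4, 260.4 and 262.9 CPM in the other MARK3i libraries, a gap of 0.901 of the range. Both are V0 subunits, and neither was called between groups. A single library was marked when its gap passed Dixon's 95% critical value for a group of 4, which was examined for 42 groups (the 21 tested pump genes in MARK3i and in control). Chance alone marks about 5% of groups, and 2 of 42 were marked.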

How the results depend on the processing

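The 7 pump genes called higher kept the call and the direction in each of the 18 alternatives. The number called higher was 7 in every alternative but total counts, with 8, and the number called lower stayed 0. All genes called numbered 9549, between 7751 (adjusted p under 0.01) and 9906 (GC offsets) over the alternatives, and 8867 to 9347 with 1 library left out. The other pump subunits called lower were 3, but 1 with total counts and 1 at an adjusted p under 0.01, 2 with upper-quartile factors, no filter or GC offsets, and 2 to 3 with a library left out. Assembly factors called lower were 2, but 1 with upper-quartile factors, total counts, no filter or an adjusted p under 0.01, and 1 to 2 with a library left out. The cause was not tested. Of the 52 genes that the naming rule took, not all of which appear in the text, 7 changed a call in at least 1 alternative and 0 reversed. The 3 ratios, whose alternatives were added after seeing the data, ranged over 0.26 to 0.34 (A to B2), 0.54 to 0.57 (E1 to G1) and 0.62 to 0.75 (D to d1) in log2 with a library left out. Same-numbered libraries of the groups did not deviate together (correlations −0.0875 to 0.131). With the replicate block, 7 pump genes were higher, 0 were lower and 9596 of all genes were called. Depth limits ATP6V0C (38 to 120 counts).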

Other observations

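The lysosomal platform on which the V-ATPase takes part in mTORC1 signalling had 6 of 14 tested genes higher in MARK3i (42.9%), 1 lower (7.14%) and 7 not called, beside 29.8% higher and 28.3% lower among all genes. All 4 Rag GTPase genes were higher: RRAGA (103.0 ± 7.95 CPM in MARK3i, 77.3 ± 3.14 CPM in control, log2 0.41 ± 0.06, adjusted p = 6.68e-06), RRAGB (16.6 ± 0.41 CPM in MARK3i, 10.8 ± 1.07 CPM in control, log2 0.62 ± 0.10, adjusted p = 8.37e-06), RRAGC (25.5 ± 1.32 CPM in MARK3i, 18.0 ± 1.28 CPM in control, log2 0.51 ± 0.09, adjusted p = 1.73e-05) and RRAGD (86.0 ± 7.22 CPM in MARK3i, 59.5 ± 5.77 CPM in control, log2 0.53 ± 0.08, adjusted p = 1.34e-06). They kept the call in each of 18 alternatives. LAMTOR2, a subunit of the Ragulator scaffold that anchors the Rag proteins, was lower (35.5 ± 3.67 CPM in MARK3i, 47.4 ± 1.91 CPM in control, log2 −0.42 ± 0.08, adjusted p = 5.56e-05).

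Channels and exchangers that move the counter-ions of the pumped protons, or release ions from the acid compartment, had 8 of 15 higher in MARK3i (53.3%), 2 lower (13.3%) and 5 not called. Among all tested genes 29.8% were higher and 28.3% lower. The median log2 change of the 15 was 0.20, beside 0.02 over all genes. The chloride-proton exchanger gene CLCN3 was at 107.4, 81.1, 97.4 and 87.2 CPM in MARK3i and 57.4, 59.6, 50.6 and 52.0 CPM in control, with no overlap (log2 0.76 ± 0.08, adjusted p = 1.61e-08). The calcium channel genes MCOLN3 and MCOLN2 moved in opposite directions. MCOLN3 averaged 2.9 ± 0.805 CPM in MARK3i and 0.518 ± 0.194 CPM in control (log2 2.49 ± 0.31). It had 39, 83, 47 and 27 counts in MARK3i but only 8, 7, 8 and 3 in control. MCOLN3 thus entered the test only through its MARK3i level, so its p is not printed. SLC9A9, an exchanger gene also called higher, was likewise low in control, with 9, 11, 11 and 15 counts against 29, 47, 34 and 32 in MARK3i. Both genes are counted among the 8 and in the median of the 15, so the 53.3% rests partly on them. MCOLN2 averaged 1.4 ± 0.205 CPM in MARK3i and 3.91 ± 0.295 CPM in control (log2 −1.47 ± 0.20, adjusted p = 8.69e-07). MCOLN1, of the same family, was at a far higher level, with 36.5 ± 2.67 CPM in MARK3i and 31.9 ± 1.54 CPM in control (log2 0.20 ± 0.08, adjusted p = 0.0299).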
